A study of Mus musculus with 2 samples.

Results

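The lysosomal genes described here were 45 of the 37146 gene identifiers in RNA sequencing tables of mouse liver. They encode acid hydrolases, proteins of the lysosomal membrane, subunits of the proton pump, the transcription factor TFEB and progranulin. The members were listed by name, not by their values, though earlier results of these data were known. Of them 44 matched a gene name in the tables, and Tfeb was found by its Ensembl identifier because the tables call it Tcfeb. All animals were CD-1 mice. The Control group was given PBS by mouth, and the NP group was given an equal volume of titanium dioxide (TiO2) nanoparticles at 50 mg per kg of body weight per day, sonicated for 30 min beforehand. Each group had 1 library, made from total RNA of frozen liver. The number of animals behind a library, their sex and age and the length of the treatment are not stated in the labels. With 1 library a group there was no replicate check, and differences are between these libraries; no p-value was computed.

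Lysosomes are acidic organelles that break down proteins, glycans, lipids and whole organelles delivered by endocytosis, phagocytosis and autophagy. A V-type ATPase pumps protons into the lumen, most hydrolases reach it on mannose 6-phosphate receptors, and heavily glycosylated membrane proteins line the inside. TFEB and its relatives bind an E-box-like element, known as the CLEAR element, at many lysosomal genes and are held in the cytoplasm when mTORC1 is active. In liver, hepatocytes and the resident macrophages, the Kupffer cells, are both rich in lysosomes.

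The core of that element can be read in the promoters of the members. RefSeq promoter windows of 300 bases (build GRCm38.p6, 250 bases before to 50 after a start site) were found for 40 of the 45 members, 46 windows in all. The 6 members with the palindrome TCACGTGA are shown because the control of lysosomal genes by TFEB is known through this kind of sequence. The palindrome is in capitals within 30 bases, 5′ to 3′ on the strand of the gene.
Atp6v0d1, chr8:105566050-105566079, minus strand: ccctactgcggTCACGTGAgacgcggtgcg
Atp6v1a, chr16:44139373-44139402, minus strand: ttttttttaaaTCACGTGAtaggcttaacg
Ctsa, upstream match, chr2:164833749-164833778, plus strand: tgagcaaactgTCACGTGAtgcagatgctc
Ctsa, downstream match, chr2:164833766-164833795, plus strand: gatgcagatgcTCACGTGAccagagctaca
Ctsd, chr7:142387908-142387937, minus strand: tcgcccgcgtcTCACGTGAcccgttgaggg
Gla, upstream match, chrX:134601215-134601244, minus strand: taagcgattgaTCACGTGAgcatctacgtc
Gla, downstream match, chrX:134601182-134601211, minus strand: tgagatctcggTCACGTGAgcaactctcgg
Mcoln1, chr8:3500462-3500491, plus strand: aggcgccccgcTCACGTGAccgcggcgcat
Counted from the start site, the first capital lies at -4 in Atp6v0d1, -132 in Atp6v1a, -13 and 5 in Ctsa, -99 in Ctsd, -228 and -195 in Gla and -46 in Mcoln1. Each motif searched reads the same on both strands, and the shorter ones are contained in the longer. The core CACGTG was in 14 of the 46 windows (30.4%), 1 for each of 14 genes, against 7.15% of all 32851 windows in the table and 10.4% of the 8908 windows of genes that passed the expression filter. TCACGTGA was in 6 of 46 windows (13.0%), against 0.974% and 1.96%. The longest motif searched, TCACGTGA with a G before it and a C after it, was in 0 of the 46 windows, against 0.326% and 0.741%. A match is a string of letters and was not tested as a binding site.

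Each library was summarised as FPKM (mapped fragments scaled to transcript length and to library size), summed over all rows of a gene, with the 95% interval that Cufflinks reports combined over rows. That interval covers the estimate within 1 library, not the spread between animals. Ratios between libraries were taken as log2((NP + 1)/(Control + 1)), which draws low genes toward 0, and the plain FPKM ratio is given beside it for the main members. The comparison took genes whose mean reached 1 FPKM and that had no failed row, 10544 in all, of which 44 were members. Idua, alpha-L-iduronidase, was listed at 0 in both libraries and entered no comparison; it overlaps the genes Dgkq and Slc26a1. The NP library had 1.28 times the read coverage per FPKM of the Control library, so its values rest on more reads, and the total reads of each library are unknown. Over all genes compared the median log2 ratio was -0.03, with quartiles at -0.19 and 0.14. A ratio below 0 was found for 54.3% of these genes. Of 10 hepatocyte markers 8 were higher in NP; their summed levels were 61232 FPKM in Control and 70729 in NP, and 39573 and 39988 without albumin (Alb), while Apoa2 and Cyp2e1 were lower with intervals that stood apart. Markers of other liver cells that passed the expression filter were lower in NP for 8 of 11 Kupffer cell and macrophage genes, 11 of 11 sinusoidal endothelial genes and 4 of 5 stellate cell genes. Over the whole lists, low genes included, 12 of 15, 11 of 12 (Eng was at 0 in both) and 5 of 6 were lower. In bulk liver, fewer cells of a type and less RNA per cell cannot be told apart.

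The lysosomal genes stood at nearly the same levels in both libraries. Their summed level was 2716 FPKM in Control (95% interval 2677 to 2755) and 2768 FPKM in NP (2730 to 2807), a ratio of 1.02. The median log2 ratio of the 44 members was 0.02, with quartiles at -0.06 and 0.08, and 26 lay above 0 and 18 below. None of the 44 was at least 1.5-fold higher or lower in NP on the log2(FPKM + 1) scale, against 3.59% of all genes compared that were higher and 5.33% that were lower. Within 1.2-fold lay 41 of 44 members (93.2%), against 68.2% of all genes. Many members are well expressed, and where the mean reached 5 FPKM the counts were 35 of 36 members (97.2%) and 72% of all genes. The members outside 1.2-fold were Ctsc, higher in NP (13.7% of all genes were that much higher), and Tfeb and Ctss, lower in NP (18.1%).

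**Figure D1:**
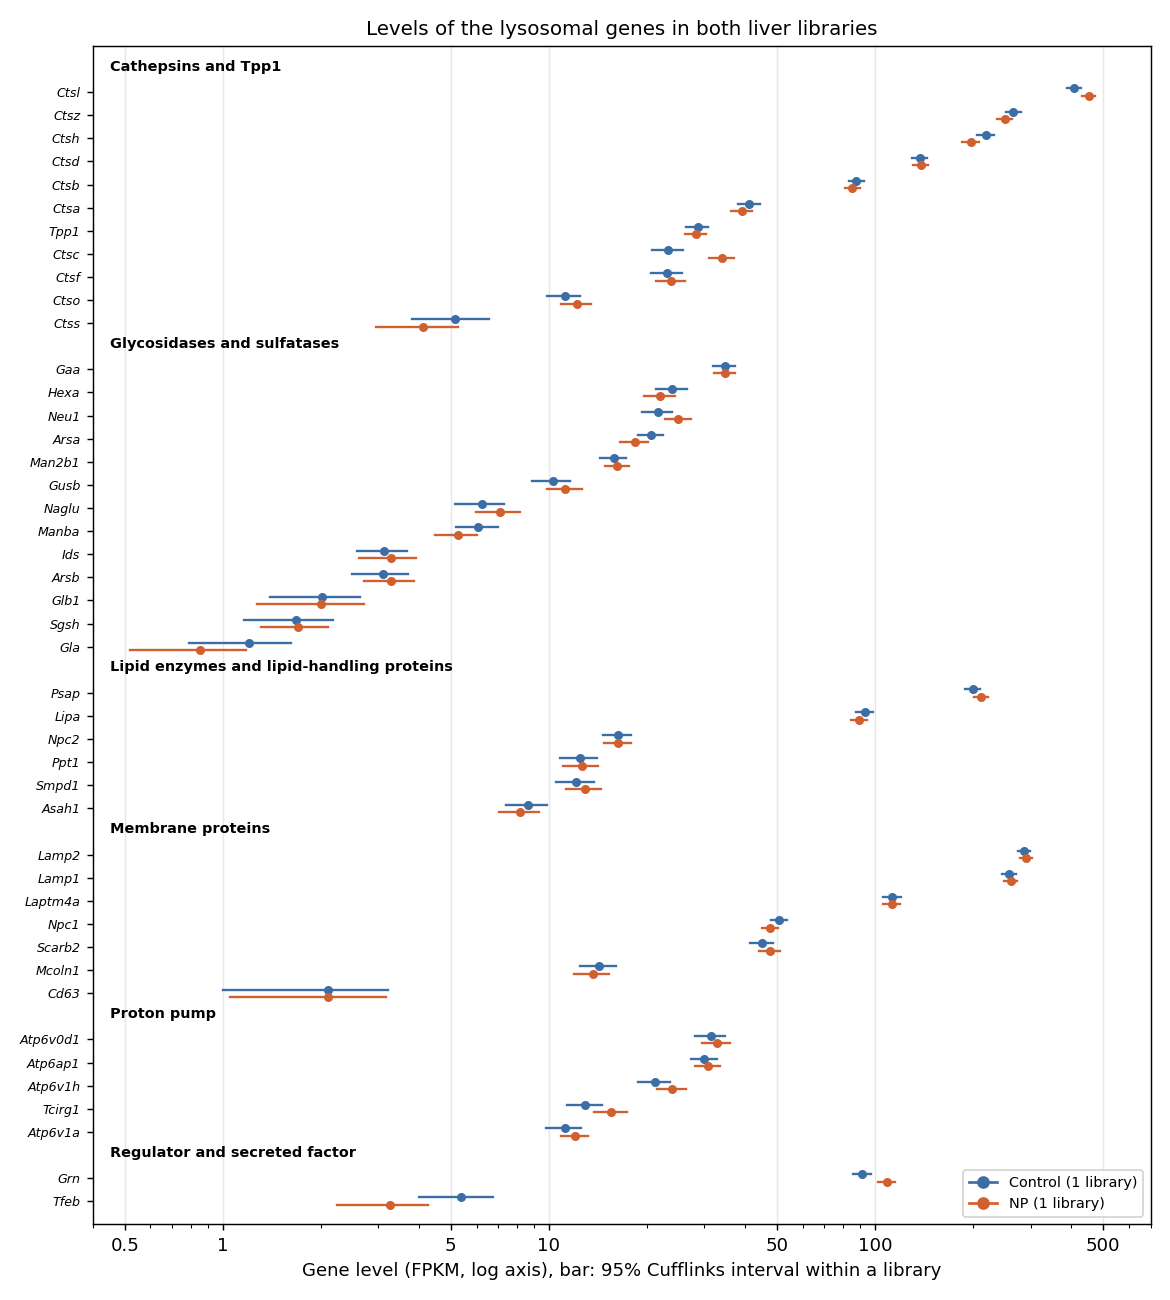
Level of each of the 44 compared members in FPKM (log axis) in the Control and NP libraries, grouped by role and ordered by level. Points are the summed gene levels and bars the 95% intervals within a library; the bars of Ctsl, Ctsc and Grn do not overlap, and those of the other members do.

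The levels themselves spanned from 409 FPKM for Ctsl to 1.2 for Gla in Control. In that library 8 members were at 100 FPKM or more, 25 between 10 and 100 and 11 between 1 and 10. Ctsl, Lamp2, Ctsz, Lamp1, Ctsh and Psap together made up 60.3% of the summed level of all members in Control and 60.1% in NP. Neighbours in this order were often not separated: in Control the intervals of Lamp2 (274 to 299), Ctsz (251 to 280) and Lamp1 (245 to 270) overlap from one to the next. The plot of member levels by library shows this ladder, which runs through the same 8 genes at the top in NP.

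Cathepsins, the proteases of the lumen, and tripeptidyl peptidase 1 (Tpp1) carried 46.0% of the summed level of the members in Control and 45.7% in NP. Of these 11 genes 5 had a log2 ratio above 0 and 6 below, with a median of -0.02. The group held both the highest level among the members, Ctsl, and the largest ratio, Ctsc.

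Ctsc encodes cathepsin C, also known as dipeptidyl peptidase 1, which removes dipeptides and activates the serine proteases of neutrophils, mast cells and cytotoxic lymphocytes. It lies on chromosome 7 from 95426595 to 95459398 (build mm9, as are all gene positions given from the tables). Its level was 23.2 FPKM in Control (20.7 to 25.7) and 34.1 FPKM in NP (31.1 to 37.0), a plain ratio of 1.47 and a log2 ratio of 0.53 (0.34 to 0.73). The whole NP interval was higher than that of Control, as it was for 3 of 44 members and 7.72% of all genes. No member had an NP interval wholly below that of Control, against 9.58% of all genes. The difference in Ctsc sat mainly in a transcript row of 1863 nt, at 20.3 FPKM in Control (17.9 to 22.7) and 30.4 in NP (27.5 to 33.3). A row of 3209 nt was at 2.93 and 3.68 FPKM. The marker lists of cells rich in its target proteases were low in both libraries: the summed level of 5 neutrophil markers was 4.54 FPKM in Control and 5.51 in NP, with Camp at 0 in both, and that of 7 markers of T, B and NK cells was 1.95 and 2.27. The part of these cells in the Ctsc difference was not tested.

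Ctsl, cathepsin L, a cysteine endopeptidase on chromosome 13 from 64464522 to 64471614, was at 409 FPKM in Control (389 to 428) and 452 FPKM in NP (432 to 473). The ratio was 1.11 (log2 ratio 0.14), small in size, with intervals that did not overlap; with row half-widths added in place of combined in quadrature they did overlap. Its row of 988 nt was at 282 and 321 FPKM, and its row of 1971 nt at 127 and 131.

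Ctss, cathepsin S, works at near-neutral pH and trims the invariant chain in antigen-presenting cells. It was at 5.17 FPKM in Control (3.80 to 6.55) and 4.12 in NP (2.96 to 5.28), a plain ratio of 0.797 and a log2 ratio of -0.27, and the intervals overlapped widely. Ctss overlaps the pseudogene Hmgb1-ps5. Beside it, the 15 Kupffer cell and macrophage markers summed to 113 FPKM in Control and 93.8 in NP, and no marker of that list was at 0 in both libraries. Clec4f, a lectin of Kupffer cells, was at 18.4 and 7.63 FPKM and Cd5l, a scavenger receptor-like protein, at 8.22 and 5.19, with intervals that stood apart. Intervals overlapped for the other markers. Of these, Vsig4, a complement receptor, was at 3.02 and 1.78 FPKM, and the complement genes C1qa, C1qb and C1qc were at 8.24 and 6.16, 6.5 and 6.24, and 7.05 and 5.17. The markers higher in NP were the folate receptor Folr2 (0.974 and 1.67 FPKM), lysozyme 2 (Lyz2, 8.89 and 9.98) and the iron exporter Slc40a1 (44.8 and 45.7). The part of macrophage content in the values of Ctss, Ctsc and Grn was not tested.

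The other 8 genes of this group lay within 1.2-fold. Cathepsin Z (Ctsz), a carboxypeptidase, was at 266 FPKM in Control and 250.5 in NP. Cathepsin H (Ctsh), an aminopeptidase, was at 219 FPKM in Control (205 to 232) and 197 in NP (184 to 209), a log2 ratio of -0.15. Cathepsin D (Ctsd), the main aspartic protease, was at 137 and 138 FPKM. Cathepsin B (Ctsb) was at 87.8 and 85.3 FPKM. Their intervals overlapped between libraries, for Ctsh only at the edge. Ctsa, which protects neuraminidase 1 and beta-galactosidase in a shared complex, was at 41.1 and 39.0 FPKM and overlaps Pltp. Tpp1 was at 28.6 and 28.2 FPKM, Ctsf at 23.0 and 23.7, and Ctso at 11.2 and 12.2.

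Glycosidases and sulfatases, which take apart glycogen, glycoproteins, glycolipids and glycosaminoglycans, were expressed at lower levels and together made up 5.53% of the summed level of the members in Control and 5.45% in NP. Their sum was 150.1 FPKM in Control and 150.8 in NP. Of the 13 genes compared 8 had a ratio above 0 and 5 below, with a median of 0.02.

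Acid alpha-glucosidase (Gaa), which degrades glycogen in the lysosome, was at 34.6 FPKM in Control (31.9 to 37.3) and 34.7 in NP (32.2 to 37.3). The alpha subunit of beta-hexosaminidase (Hexa) was at 23.9 and 21.9 FPKM. The Gaa level of each library lay inside the interval of the other, and the Hexa intervals overlapped. Neuraminidase 1 (Neu1), which removes terminal sialic acids, was at 21.5 FPKM in Control (19.3 to 23.8) and 25 in NP (22.7 to 27.3), a ratio of 1.16 with overlapping intervals and the highest of this group. Arylsulfatase A (Arsa), the sulfatide sulfatase, was at 20.5 FPKM in Control (18.7 to 22.4) and 18.3 in NP (16.5 to 20.1), with a log2 ratio of -0.16. The mannosidases went in opposite directions by small amounts: Man2b1 was at 15.8 and 16.2 FPKM, and Manba at 6.08 and 5.25 (log2 ratio -0.18). Beta-glucuronidase (Gusb) was at 10.3 and 11.2 FPKM.

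Among the enzymes of heparan sulfate breakdown, Naglu was at 6.22 FPKM in Control and 7.08 in NP, Ids at 3.12 and 3.27, and Sgsh at 1.67 and 1.70. Arylsulfatase B (Arsb), which acts on dermatan sulfate, was at 3.10 and 3.29 FPKM. All 4 had overlapping intervals. Beta-galactosidase (Glb1) was at 2.01 FPKM in Control (1.39 to 2.63) and 1.99 in NP (1.27 to 2.72); a second identifier of that name was at 0 and was not used. Alpha-galactosidase A (Gla), the lowest of the members compared, was at 1.2 FPKM in Control (0.785 to 1.62) and 0.849 in NP (0.520 to 1.18). Its plain ratio was 0.706 and its log2 ratio -0.25, the lowest of the group, with intervals that overlapped over much of their width.

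The genes of lipid breakdown were the least spread of the hydrolase groups, with log2 ratios from -0.07 to 0.09 over 6 genes, 3 above 0 and 3 below. Prosaposin (Psap), the precursor of the saposins that present sphingolipids to their hydrolases, was at 199 FPKM in Control (189 to 209) and 212 in NP (202 to 223). Lysosomal acid lipase (Lipa), which frees cholesterol and fatty acids from lipoprotein lipids, was at 93.1 FPKM (87.7 to 98.4) and 89.5 (84.5 to 94.6). Npc2, which hands free cholesterol to NPC1 in the membrane, was at 16.3 FPKM in both. Acid sphingomyelinase (Smpd1) was at 12.1 and 12.9 FPKM, acid ceramidase (Asah1) at 8.62 and 8.18, and palmitoyl-protein thioesterase 1 (Ppt1, which overlaps Cap1) at 12.5 and 12.6. All 6 had overlapping intervals, and the sums of the group were 342 FPKM in Control and 352 in NP.

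The membrane proteins were as close, with log2 ratios from -0.08 to 0.08 over 7 genes and a median of 0.00. Lamp2, needed for the fusion of autophagosomes with lysosomes and for chaperone-mediated autophagy, was at 287 FPKM in Control (274 to 299) and 291 in NP (278 to 303). Its close relative Lamp1 was at 258 FPKM (245 to 270) and 261 (248 to 273). For both genes the interval of 1 library contained the level of the other. Laptm4a was at 113 FPKM in Control and 112.5 in NP. Npc1, the cholesterol exporter, was at 50.8 and 47.8 FPKM, and Scarb2, which carries beta-glucocerebrosidase to lysosomes, at 45.1 and 47.6. Mcoln1, the cation channel through which lysosomal calcium is released, was at 14.2 and 13.7 FPKM. Cd63, a tetraspanin that also marks exosomes, was at 2.1 FPKM in Control (1.00 to 3.20) and 2.11 in NP (1.05 to 3.16), with wide intervals.

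All 5 proton pump members had a log2 ratio above 0, from 0.04 to 0.25, with a median of 0.10 and sums of 107 FPKM in Control and 115 in NP. Tcirg1, the a3 isoform of the membrane-embedded a subunit, was at 12.9 FPKM in Control (11.4 to 14.5) and 15.5 in NP (13.8 to 17.3), a ratio of 1.2. Atp6v1h, the regulatory subunit H, was at 21.2 and 23.8 FPKM, and Atp6v1a, the catalytic subunit A, at 11.2 and 12.1. Atp6v0d1 was at 31.4 and 32.7 FPKM and the accessory subunit Atp6ap1 at 30.0 and 30.9. None of the 5 had intervals that stood apart. With the highest row of each gene only, 4 lay above 0 and Tcirg1 was at -0.28. Another 13 subunits outside the list did not share the direction: 4 had a ratio above 0 and 9 below, with a median of -0.10. Over all 18 subunits compared 9 lay above 0 and 9 below, with a median of -0.01 and sums of 492 FPKM in Control and 485 in NP.

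Tfeb, on chromosome 17 from 47873979 to 47929368, had the lowest ratio of the members. Its level was 5.37 FPKM in Control (4.0 to 6.74) and 3.26 FPKM in NP (2.25 to 4.26), a plain ratio of 0.606 and a log2 ratio of -0.58 (-1.05 to -0.11). The intervals overlapped at their edges. On plain FPKM, Tfeb was past 1.5-fold, as were 7.42% of genes above 0 in both libraries in that direction; on the log2(FPKM + 1) scale it stayed just inside. Its rows of 2342 nt (3.28 and 1.79 FPKM) and 1607 nt (2.06 and 1.42) were both lower in NP. The related factor Tfe3, listed as Tcfe3 in the tables and named here for its kinship, was at 9.34 FPKM in Control and 9.40 in NP.

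Grn encodes progranulin, a secreted protein that also reaches lysosomes and is cut there into granulins. It lies on chromosome 11 from 102291629 to 102298123 and was at 91.4 FPKM in Control (85.7 to 97.0) and 109 in NP (102.5 to 115). The ratio was 1.19 and the log2 ratio 0.25 (0.13 to 0.37), and the intervals stood apart. Grn is high in macrophages, whose markers that passed the filter were lower in NP in 8 of 11 cases and higher in 3. The part of macrophage content in the Grn value was not tested.

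**Figure D2:**
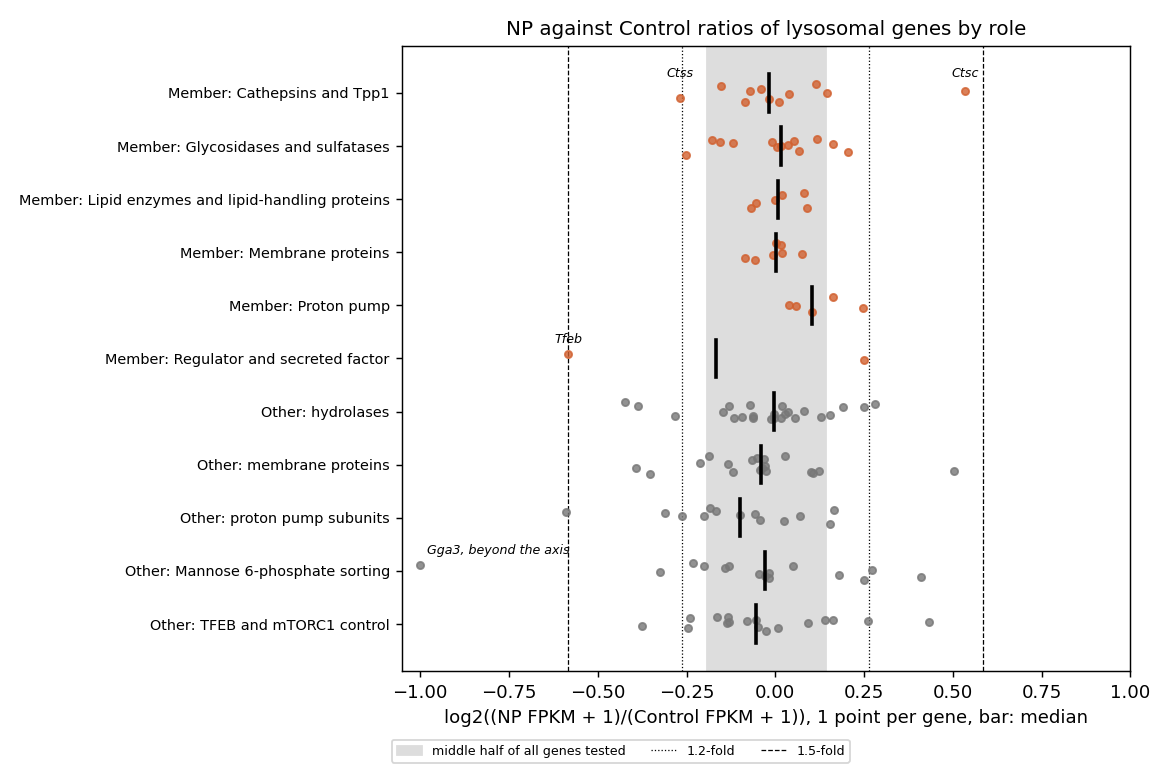
Log2 ratios of NP to Control, with 1 point per gene, for the member groups and for 5 lists of other lysosomal genes; bars are medians, the shaded band spans the quartiles of all genes compared, and dotted and dashed lines mark 1.2-fold and 1.5-fold. Most member points lie inside the band, Ctsc is to the right near 0.53 and Tfeb to the left at -0.58; Gga3 lies beyond the axis at -2.69.

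Members with and without the core motif in a promoter had medians close to 0 and to each other. Over the 14 genes with CACGTG the log2 ratios ran from -0.25 to 0.16, with a median of 0.01, 9 above 0 and 5 below. The 6 genes with TCACGTGA had a median of -0.02, with 3 on each side. The 25 compared genes with a promoter window but no core had a median of 0.04 and the wider range of -0.58 to 0.53, holding Tfeb, Ctss, Grn and Ctsc. The number of copies did not order the ratios: Lamp1 had 4 copies of the core and a log2 ratio of 0.02, Ctsd had 2 and a ratio of 0.01, and Gla had 2 and a ratio of -0.25. Longer stretches are shown for Ctsd, the most abundant member with TCACGTGA, and for Ctsc, the member with the largest ratio. Both were picked after their values were seen, and the pair shows sequence only, not a relation of motif to ratio. The 250 bases before each start site follow, 5′ to 3′, with the core in capitals.
Ctsd, chr7:142387828-142388077, minus strand: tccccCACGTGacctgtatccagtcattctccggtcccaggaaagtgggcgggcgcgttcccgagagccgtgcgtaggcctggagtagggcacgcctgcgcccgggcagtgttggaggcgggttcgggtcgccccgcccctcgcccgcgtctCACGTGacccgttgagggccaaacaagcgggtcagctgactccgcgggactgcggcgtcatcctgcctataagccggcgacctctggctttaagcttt
Ctsc, chr7:88277835-88278084, plus strand: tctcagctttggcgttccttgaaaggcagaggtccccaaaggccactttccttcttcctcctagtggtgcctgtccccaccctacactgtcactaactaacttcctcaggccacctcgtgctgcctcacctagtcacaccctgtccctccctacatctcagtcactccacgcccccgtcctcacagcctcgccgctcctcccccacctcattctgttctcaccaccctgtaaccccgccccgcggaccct
The absence of the core from the window of Ctsc says only that these letters are not there.

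**Figure D3:**
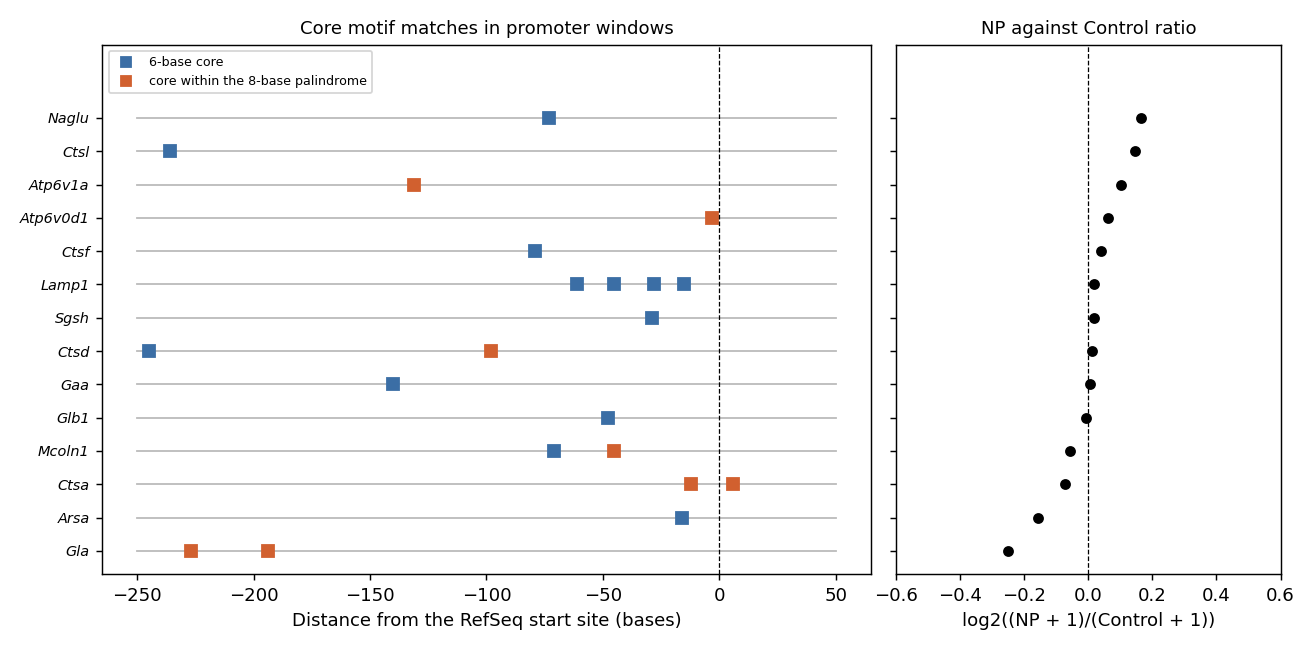
Left, position of each CACGTG core in the promoter windows of the 14 members that hold one, as distance in bases from the RefSeq start site, with cores inside TCACGTGA in a second colour. Right, the log2 ratio of NP to Control of the same gene; the ratios run from -0.25 for Gla to 0.16 for Naglu, with genes of either motif on both sides of 0.

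Close gene sums could be made of transcript rows that were not close. Of 60 member rows whose mean reached 1 FPKM, 9 in 8 genes were past 1.5-fold (15%, against 19.8% of all such rows), 3 higher in NP (8.77% of all rows) and 6 lower (11%). A row at 0 in 1 library only was found in 5 genes (8.33% of member rows, against 9.59% of all). Rows of a gene share reads, so their values are estimates of how those reads divide, and a 0 can be a failed estimate.

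Ctsh gave the clearest case among the high genes. Its row of 1238 nt was estimated at 43.5 FPKM in Control but 0 in NP, its row of 1617 nt at 95 and 125, and its row of 631 nt at 78.5 and 69.7. The row of 1238 nt is typed as nonsense-mediated decay in GENCODE release M21. For Ctsz, the row of 951 nt was estimated at 73.9 FPKM in Control but 0 in NP, while the row of 1441 nt was at 192 and 250.5. In both genes a row that differed strongly was met by the opposite difference in its neighbour, and the gene sum moved little. Arsa and Tcirg1 showed rows listed at 0 in Control: the Arsa row of 2699 nt was at 0 and 4.59 FPKM, and the Tcirg1 row of 2350 nt at 0 and 5.09. GENCODE types both as retained introns. The remaining row of Tcirg1, of 2688 nt, was at 12.9 FPKM in Control and 10.4 in NP, so the excess of the Tcirg1 sum in NP lay in the retained-intron row. For Arsa the row of 3492 nt was at 17.9 and 12.2 FPKM.

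Atp6v1a had a row of 3896 nt at 3.58 FPKM in Control but 0 in NP, with its row of 4234 nt at 7.58 and 12.1. Ids was carried in Control by a row of 4848 nt at 3.12 FPKM, which was at 1.08 in NP. The Ids rows of 4970 and 4972 nt, with means below 1 FPKM, were at 0 in Control and at 1.11 and 1.08 in NP. The rows of Gaa crossed over at an equal sum: the row of 3363 nt was at 21.6 and 15.9 FPKM and that of 3633 nt at 13.0 and 18.8. Ctsd had rows of 1910 nt at 84.6 and 94.0 FPKM and of 2128 nt at 52.5 and 44.1. Lamp2 kept its division, with a row of 1769 nt at 190 and 195 FPKM and a row of 3604 nt at 96.6 and 95.4.

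**Figure D4:**
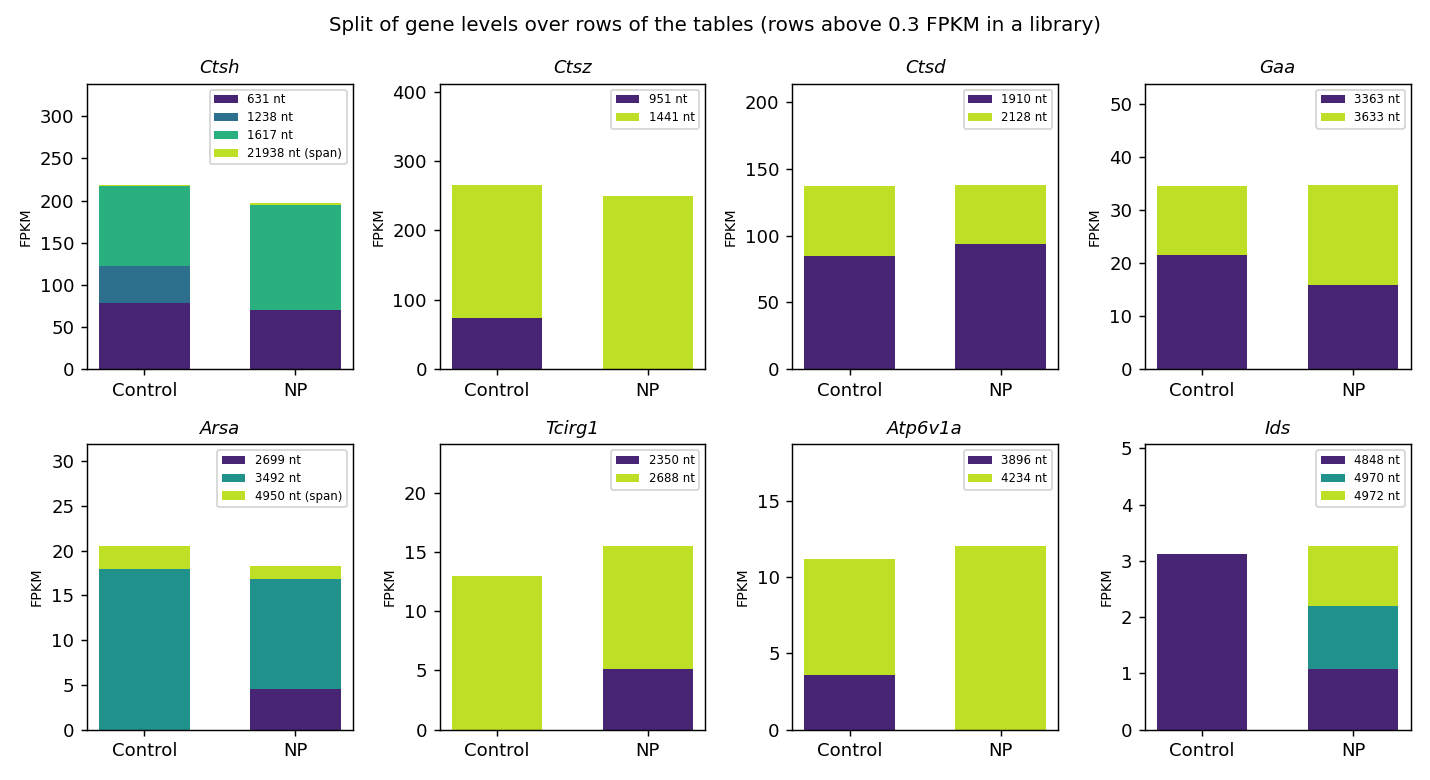
Gene level in FPKM divided over the rows of the tables for 8 members in the Control and NP libraries, with row lengths in nt; a span row covers the whole gene and can hold intronic reads. The totals are close between libraries, and the row of 1238 nt of Ctsh and that of 951 nt of Ctsz appear in Control only.

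Lysosomal genes outside the list were drawn from 5 further lists: other hydrolases, other membrane proteins, other pump subunits, mannose 6-phosphate sorting, and the control of TFEB and mTORC1. Of 98 genes named, 97 matched and 87 could be compared. None was at least 1.5-fold higher in NP (3.59% of all genes) and 2 were lower (5.33%), Atp6v0e2 and Gga3, the latter listed at 0 in NP. Within 1.2-fold lay 72 (82.8%, against 68.2%), and the median was -0.04, with 31 above 0 and 56 below. With NP scaled so that all genes had a median ratio of 0, 37 lay above and 50 below. The genes named are those with the largest ratios in each list.

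Among 24 other hydrolases the median was 0.00. Cathepsin E (Ctse) was at 1.85 FPKM in Control (1.68 to 2.01) and 1.12 in NP (1.01 to 1.24), all of it in the row that spans the gene and can hold intronic reads. Prcp, a carboxypeptidase, was at 2.56 and 1.72 FPKM, and the phospholipase Pla2g15 at 2.17 and 2.84. Among 18 other membrane proteins, with a median of -0.04, Cln3 was at 5.17 FPKM in Control (3.85 to 6.48) and 7.74 in NP (5.73 to 9.75). The macrophage proteins Cd68 (2.23 and 1.53 FPKM) and Laptm5 (2.33 and 1.88) were lower in NP with overlapping intervals. Tmem55b, which overlaps Apex1, was at 14.8 and 11 FPKM. Thus only Ctse of these 7 genes had intervals that stood apart.

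Of the other pump subunits, Atp6v0e2 was at 1.67 FPKM in Control (1.02 to 2.33) and 0.776 in NP (0.346 to 1.21), past 1.5-fold with overlapping intervals. Atp6v1d was at 18.6 and 14.8 FPKM, Atp6v1b2 at 13.9 and 11.5, and Atp6v1e1 at 57.6 and 50.0. In the sorting list of 15 genes, with a median of -0.03, sortilin (Sort1), a receptor that carries prosaposin and progranulin, was at 2.47 FPKM in Control (2.06 to 2.88) and 3.61 in NP (3.13 to 4.08). Here the NP interval was the higher; it was the lower for Gga3 and for Vps35, a retromer subunit at 27.7 and 23.4 FPKM that is named here for its intervals. Gga3, an adaptor for mannose 6-phosphate receptors that overlaps Mrps7, had 5.46 FPKM in Control and is listed at 0 for NP, and its relative Gga2 was at 8.11 and 6.28. Nagpa, which uncovers the mannose 6-phosphate tag, was at 5.67 and 7.06 FPKM. Among 17 genes of TFEB and mTORC1 control, with a median of -0.06, the mTOR partner Mlst8 was at 1.70 FPKM (1.21 to 2.19) and 2.64 (2.06 to 3.21). The Ragulator subunits Lamtor1 (26.7 and 20.3 FPKM) and Lamtor3 (3.81 and 3.05) were lower in NP, and folliculin (Flcn) was at 14.8 FPKM in Control and 17.9 in NP. Lamtor1 is listed as 2400001E08Rik in the tables.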

How the data were processed

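Per the labels, liver of CD-1 mice was frozen, extracted with Trizol and made into Illumina TruSeq libraries from total RNA. The submitters' processing notes name the tools TopHat2 2.1.0 and Cufflinks 2.2.1.0 and the build mm9. How they were run, the read length and strandedness: not given in the sources used here. Per the file headers, each row of the authors' tables gives FPKM with its 95% bounds, the row's length and its status, the layout of Cufflinks isoform tracking. A column of read coverage, a signal with no library scaling, was deposited too. Coverage per FPKM was 2.29 in Control and 2.93 in NP; no read totals are in the values, so depth is unknown.

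For each gene identifier the FPKM of its rows were added up. Half-widths of the intervals were combined in quadrature, which leaves out covariance between rows and treats a 0 as exact. Rows spanning a whole gene were included. Genes were kept if they had a mean of 1 FPKM or more, an OK status, a row of at least 300 nt and no small RNA name. Ratios used a pseudocount of 1 FPKM. Sizes of 1.5-fold and, added later, 1.2-fold were counted. The size rule was checked on simulated data.

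The members and all gene lists were chosen with earlier results of these data known. All members were named, and of every other lysosomal list the 4 genes with the largest absolute ratio. The rule would also have named every cell type marker; these are given as counts and sums with examples chosen after their values were seen. Some results are not reported here. The marker lists were for hepatocytes, Kupffer cells and macrophages, sinusoidal endothelium, stellate cells, T, B and NK cells, and neutrophils. Alternatives were other pseudocounts, filters, rows, coverage, scaling and overlapping genes left out. Promoter sequences are RefSeq's; transcript types were matched to GENCODE M21 by identifier, with no coordinates taken across builds. Python 3.11.15, pandas 2.3.3, numpy 2.4.6 and matplotlib 3.10.9 were used.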

Additional observations from a re-analysis of the deposited data

How the results depend on the processing

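With 1 library a group no replicate could be left out, and differences between animals cannot be told apart from those between treatments. No paired analysis was possible because each group had 1 library. The count of members at least 1.5-fold lower, 0 as reported, became 1 with a pseudocount of 0.1 FPKM, 1 with no pseudocount and 1 with transcript rows only, Tfeb in each case (log2 ratios of -0.71, -0.72 and -0.59), against 7.58%, 7.42% and 4.92% of all genes. With the highest row of each gene only, 3 were lower (Tfeb, Glb1 at -0.95 and Ids at -0.98) and 1 was higher (Atp6v1a at 0.61), against 7.17% and 5.32% of all genes. Under that setting, chosen after the data were seen for the intervals, 7 members had an NP interval wholly above Control (Ctsc, Ctsh, Ctsl, Ctsz, Sgsh, Atp6v1a and Grn) and 4 wholly below (Glb1, Gaa, Ids and Arsa); it drops all other rows of a gene by construction. With half-widths added, 2 were above, without Ctsl. For both of these interval settings the share of all genes was not computed, so these counts have no background beside them. The 1.2-fold count and the alternatives for the other lysosomal genes were also chosen after seeing the data. Members within 1.2-fold numbered 32 of 44 with the highest row only (61.7% of all genes). They numbered 35 of 36 at a mean of at least 5 FPKM (72.0%) and 42 of 45 with no filter (84.9%). With a pseudocount of 0.1, with none and with NP scaled to a median ratio of 0 they were 40, 39 and 40 of 44 (62.4%, 62.1% and 68.1%). With transcript rows only and with coverage they were 41 of 44 (67.7% and 67.9%). The members' median stayed between 0.02 and 0.05. Other lysosomal genes at least 1.5-fold higher, 0 of 87 as reported, became 1 of 87 with a pseudocount of 0.1. With no pseudocount 1 of 86 was higher, and with no filter 1 of 97. The shares of all genes higher in these settings were 5.07%, 4.92% and 1.63%. Those lower, 2 of 87 as reported, became 0 of 73 at a mean of at least 5 FPKM (3.62% of all genes). With the highest row only 6 of 87 were lower (7.17%). The count was 1 of 87 with NP scaled to a median ratio of 0 (4.95%) and 1 of 87 with upper-quartile scaling (4.96%). With overlapping genes left out it was 1 of 79 (5.33%). The cause was not tested for the scalings. Of 429 recomputed member ratios 419 stayed within the spread used, the half-width of the gene's own log2 ratio interval. The 10 that moved were all with the highest row only. With no filter, a mean of at least 5 FPKM or overlapping genes left out, only the genes compared change, so those ratios could not move. Both scalings multiplied every NP value by 1.02, a shift too small to move most ratios. In every alternative that gave them a value, 34 of 44 members kept their sign.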
